A study of Mus musculus with 6 samples.

Results

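The immunoglobulin constant genes and Jchain were followed in FACS-sorted HSPCs (Lin- cKit+ Sca1+) of mouse bone marrow, profiled by droplet single-cell RNA sequencing. The 10 members were taken by symbol from the 32285 genes of the deposited matrices: the heavy chain constant genes Ighm, Ighd, Igha, Ighg1, Ighg2b and Ighg2c, the kappa constant gene Igkc, the lambda genes Iglc2 and Iglv1, and Jchain. Isotype and light chain were read cell by cell in cluster 6 of the authors' cell table, which holds 177 of its 16822 kept cells, and the levels were then compared with the other clusters.

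The recipients were C57BL/6J (CD45.1) mice aged 8 to 12 weeks that received either PBS or 1000000 cells of C1498, a C57BL/6 acute myeloid leukemia line, and were sacrificed on day 21. Hind-leg marrow was lineage-depleted before the sort in every sample. There were 3 PBS and 3 AML libraries, named here by group and number. Cluster and class labels cover PBS 1, 2 and 3 and AML 1 and 3, so comparisons between groups rest on 3 against 2 libraries. The labels do not say whether each library came from 1 mouse, and the p-values measure only the spread between libraries. The matrices held between 7089569 and 41220306 unique molecular identifiers (UMIs) a library, and a kept cell had a median of 2393 (AML 1) to 9586 (PBS 2) UMIs.

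An antibody pairs 2 kinds of chain. In a B cell, V segments are joined to downstream D and J segments at the heavy locus and to a downstream J segment at one light chain locus, and the constant gene then read out sets the isotype: Ighm first, with Ighd beside it, and Igha or an Ighg gene after class switching. Plasma cells, the secreting end stage of the lineage, fill their mRNA pool with these transcripts, and Jchain encodes the joining chain that links secreted IgM and IgA into polymers. The bone marrow is a main home of such cells. Ighm is also transcribed from the unrearranged locus in lymphoid-primed progenitors, before any antibody is made.

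On GRCm38 (GENCODE M21), Ighm (ENSMUSG00000076617) lies at chr12:113418558-113422730 on the minus strand, with Ighd at chr12:113406604-113416324 and Igha at chr12:113254830-113260236 on the same strand, and Ighg1, Ighg2b and Ighg2c between Ighd and Igha. Igkc (ENSMUSG00000076609) is at chr6:70726435-70726966 on the plus strand, Iglc2 at chr16:19198396-19200351 and Iglv1 at chr16:19085017-19085500, both on the minus strand. Jchain (ENSMUSG00000067149) is at chr5:88519809-88527891, minus strand.

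The V genes counted in the same cells name a part of the antibody a cell makes. Only 36 of the 177 cells had a call for both a heavy chain and a kappa V gene. A heavy chain V gene, Ighv11-2, and a kappa V gene, Igkv14-126, were called together in all 5 libraries with kept cells, in PBS 2 in 1 cell. A second pair, Ighv6-3 and Igkv5-39, was counted mainly in PBS 1. The germline sequences below run 5′ to 3′ along the gene and are the last 298 to 300 bases of the V coding exon, cut at 300 bases. Ighv11-2 is at chr12:114048241-114048540 (minus strand), Igkv14-126 at chr6:67896345-67896642 (plus), Ighv6-3 at chr12:114391712-114392011 (minus) and Igkv5-39 at chr6:69900424-69900721 (minus), in GRCm38. Capitals mark the bases from the last in-frame cysteine codon to the end of the segment, the part a V segment gives to the third hypervariable loop.
Ighv11-2: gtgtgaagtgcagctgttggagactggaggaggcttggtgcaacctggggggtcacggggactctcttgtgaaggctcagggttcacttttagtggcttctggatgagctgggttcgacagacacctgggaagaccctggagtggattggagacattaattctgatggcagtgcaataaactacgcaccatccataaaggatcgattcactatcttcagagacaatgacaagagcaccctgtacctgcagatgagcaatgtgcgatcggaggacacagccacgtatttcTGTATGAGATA
Igkv14-126: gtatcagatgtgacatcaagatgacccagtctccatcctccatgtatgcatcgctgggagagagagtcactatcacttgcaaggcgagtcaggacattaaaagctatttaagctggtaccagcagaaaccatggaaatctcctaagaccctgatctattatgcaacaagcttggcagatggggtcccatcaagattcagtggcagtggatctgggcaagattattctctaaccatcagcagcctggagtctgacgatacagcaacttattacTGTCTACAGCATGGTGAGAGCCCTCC
Ighv6-3: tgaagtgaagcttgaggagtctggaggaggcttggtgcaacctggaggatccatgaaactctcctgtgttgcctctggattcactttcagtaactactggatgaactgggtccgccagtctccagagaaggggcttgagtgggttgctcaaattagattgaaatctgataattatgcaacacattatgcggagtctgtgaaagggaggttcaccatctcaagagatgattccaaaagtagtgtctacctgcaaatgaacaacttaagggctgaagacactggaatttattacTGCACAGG
Igkv5-39: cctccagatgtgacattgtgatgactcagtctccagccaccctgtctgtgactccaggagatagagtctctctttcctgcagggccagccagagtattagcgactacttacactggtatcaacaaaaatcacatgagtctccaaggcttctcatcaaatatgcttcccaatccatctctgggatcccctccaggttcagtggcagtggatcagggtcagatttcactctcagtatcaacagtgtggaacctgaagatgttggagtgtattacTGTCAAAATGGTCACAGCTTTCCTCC

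Cluster 6 was led by immunoglobulin genes and Jchain. Its 10 genes with the highest fold over the other kept cells were Iglc3, Igkc, Jchain, Iglc1, Iglc2, Igha, Igkv14-126, Mzb1, Ighm and Iglv1, as mean CPM (UMIs per 1000000 UMIs of the same cells) over the 5 libraries. The fold was taken after adding 1 CPM to both means. This places genes near 0 in the rest lower than their plain ratio would, such as Igkv12-44 (283 against 0.0380 CPM). Clusters were made from expression in the same cells, so the contrast is a description without a test. Places in this order can rest on few cells: 1 cell held 98.4% of the Iglc3 UMIs of PBS 2 and 1 held 47.8% in PBS 3, and Igha was at 0 and 8.21 CPM in cluster 6 of AML 1 and 3. Of 15 plasma cell markers, 14 were higher in cluster 6 in all 5 libraries, with Prdm1 higher in 3. Mzb1, an endoplasmic reticulum chaperone for IgM, averaged 2488 CPM in cluster 6 and 2.91 CPM in the rest. Xbp1, the transcription factor of the secretory programme, averaged 650 against 39.6 CPM, and Tnfrsf17, the survival receptor BCMA, 154 against 0.316 CPM. The B cell genes Pax5, Cd22, Cr2 and Fcer2a had 0 UMIs in the 177 cells, whereas Cd74, Cd79a, Cd79b, Ms4a1 and Fcmr were higher than in the rest in all 5 libraries. On these markers the cells are plasma cell-like.

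The label of the sort was checked in the same cells. Kit, which encodes the sorted antigen cKit, was lower in cluster 6 in all 5 libraries (mean 22.1 against 88.4 CPM), with at least 1 UMI in 32 of 177 cells. Ly6a, which encodes Sca1, was higher in all 5 (593 against 134 CPM) and was found in 159 cells. Of 11 genes on the LSK list 10 were lower in CPM in all 5 libraries, among them Cd34, a surface antigen of progenitors (19.2 against 266 CPM). Since antibody transcripts take up most of the total, the CPM of every other gene in cluster 6 is lowered by them. With all immunoglobulin genes and Jchain taken out of the total, Kit averaged 57.9 CPM in cluster 6 and 88.4 CPM in the rest, and 8 of the 11 genes were lower in all 5 libraries. By the authors' classes, 172 of the 177 cells are MPP-3, 4 HSC and 1 MPP-2.

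Antibody transcripts made up a median of 63.8% of the UMIs of a cluster 6 cell, with a range from 0% to 87.8%. The lowest values belong to 4 cells of PBS 1, the 4 of the HSC class, which held 0 or 1 antibody UMI. These 4 cells had 139 to 160 detected genes and 2299 to 3194 UMIs, of which 1173 to 1592 were for Hbb-bs, a beta globin gene of erythroid cells. They are kept in every count below as cells with no call.

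Libraries shared barcodes, which bears on every count of single cells. Of the 177 cluster 6 barcodes, 137 also occur in at least 1 other library, most often AML 2. In 3 cases both copies are cluster 6 cells. The largest of them had 43435 UMIs in PBS 2, with 28892 for Igkc, 3723 for Ighm and 1390 for Jchain, and the same barcode in PBS 1 had 2695 UMIs, with 1921, 190 and 70. That barcode occurs in all 6 libraries with the 3 genes in the same order. The PBS 1 copies of the other 2 had 1850 and 1801 UMIs against 29871 and 29318 in PBS 2. Of all kept cells, 47 had more UMIs under the same barcode in another library. What makes libraries share barcodes was not tested, and the calls and tests were repeated without such cells, a choice made after seeing the data.

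Nearly every cell of cluster 6 carried Ighm. A cell was assigned the heavy chain gene with at least 80% of its heavy chain UMIs, given at least 10 of them, and kappa or lambda in the same way. By this rule 170 of 177 cells were Ighm (96.0%, exact 95% binomial interval 92.0 to 98.4), 3 were Igha and the 4 cells above had no call. No cell was called Ighd, Ighg1, Ighg2b or Ighg2c, and 0 of 177 cells allows a share of up to 1.69% by the limit of 3 counts, or 2.06% by the exact interval. Here and below, such intervals cover counting error only. The Ighm cells were 52 of 57 in PBS 1, 11 of 12 in PBS 2, 39 of 40 in PBS 3, 9 of 9 in AML 1 and 59 of 59 in AML 3. Without the 3 smaller copies, all of them Ighm and kappa cells, PBS 1 had 49 Ighm and 50 kappa cells of 54, and all libraries together 167 Ighm and 163 kappa cells of 174.

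The light chain was mostly kappa. Igkc led in 166 cells (93.8%, interval 89.2 to 96.9), a lambda gene in 4, and 3 cells with 21, 63 and 230 light chain UMIs, all from AML libraries, fell short of 80% for either. Kappa cells were 53 of 57, 10 of 12, 38 of 40, 7 of 9 and 58 of 59 in PBS 1, 2, 3 and AML 1 and 3. The 4 lambda cells, 2 in PBS 2 and 2 in PBS 3, were each dominated by 1 constant gene that is not a member. One PBS 2 cell had 12309 Iglc1 UMIs, and the other 3 had 16327, 6708 and 6786 Iglc3 UMIs. These 4 cells held 0 or 1 Igkc UMI, and their heavy chain was Ighm in 2 and Igha in 2.

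Iglc2 led in no cell. Its highest count, 522 UMIs, was in the PBS 2 cell with 12309 Iglc1 UMIs. In kappa cells Iglc2 was nonetheless present at a low level, with library medians of 16, 49, 28, 12 and 19.5 UMIs in PBS 1, 2, 3 and AML 1 and 3. Iglc2 and Iglc3 share 24.8% to 25.1% of their stretches of 31 bases, so reads of one may be counted for the other, and the low counts of either are uncertain. Iglc1 shares none with them. Iglv1, the variable segment most used with lambda chains, had a median of 3 UMIs over the 177 cells, a highest count of 136, and 0 UMIs in 42.

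The 3 Igha cells came 1 from each PBS library. The PBS 1 cell had 589 Igha and 3636 Igkc UMIs, the PBS 2 cell 1430 Igha and 16327 Iglc3 UMIs, and the PBS 3 cell 484 Igha and 6786 Iglc3 UMIs. All had 0 Ighm UMIs. They carried Jchain at 881, 2305 and 658 UMIs, and 2 of the 3 were lambda cells, where 2 of the 170 Ighm cells were. Those single cells supplied 98.0%, 99.9% and 99.2% of all Igha UMIs of the kept cells in PBS 1, 2 and 3. In the AML libraries no kept cell was called Igha, and 0 of 68 cluster 6 cells, taken over both libraries, allows a share of up to 4.41% by the limit of 3 counts, or 5.28% by the exact interval. Over the PBS libraries it was 3 of 109 cells (2.75%, interval 0.571 to 7.83), and the exact intervals overlap. Among AML 1 barcodes outside the cell table, 5 of 38 antibody-rich ones were called Igha.

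The remaining heavy chain members were all but absent. Ighg2b reached 9 UMIs in cluster 6, all in PBS 1 and in 1 cell, and Ighg1 2 UMIs in AML 3. Ighg2c had 0 UMIs in all 6 libraries. Ighd, which is read from the same transcript as Ighm in naive B cells, had 1 UMI in the 177 cells, against 29, 15, 21, 2 and 54 UMIs outside cluster 6 in PBS 1, 2, 3 and AML 1 and 3.

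Levels per cell spanned orders of magnitude. Ighm per cell had a lowest, median and highest count of 0, 725 and 3214 UMIs in PBS 1, 0, 1226 and 3723 in PBS 2, 0, 453.5 and 1344 in PBS 3, 17, 57 and 956 in AML 1, and 14, 580 and 1640 in AML 3. Igkc ran from 0 to 20402 with a median of 1921 in PBS 1, from 0 to 28892 (median 5786.5) in PBS 2, from 0 to 16837 (median 4680) in PBS 3, from 16 to 5631 (median 814) in AML 1 and from 145 to 12997 (median 4374) in AML 3. Jchain had medians of 512, 1104.5, 479, 39 and 319 UMIs. Without the smaller copies the PBS 1 medians were 793.5 for Ighm, 2182.5 for Igkc and 532.5 for Jchain. The per-cell ranges of all 5 libraries overlap, and AML 1 is lowest and PBS 2 highest in median for all 3 genes. The same libraries have the lowest and highest median total in cluster 6, 2801 and 18230.5 UMIs.

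**Figure D1:**
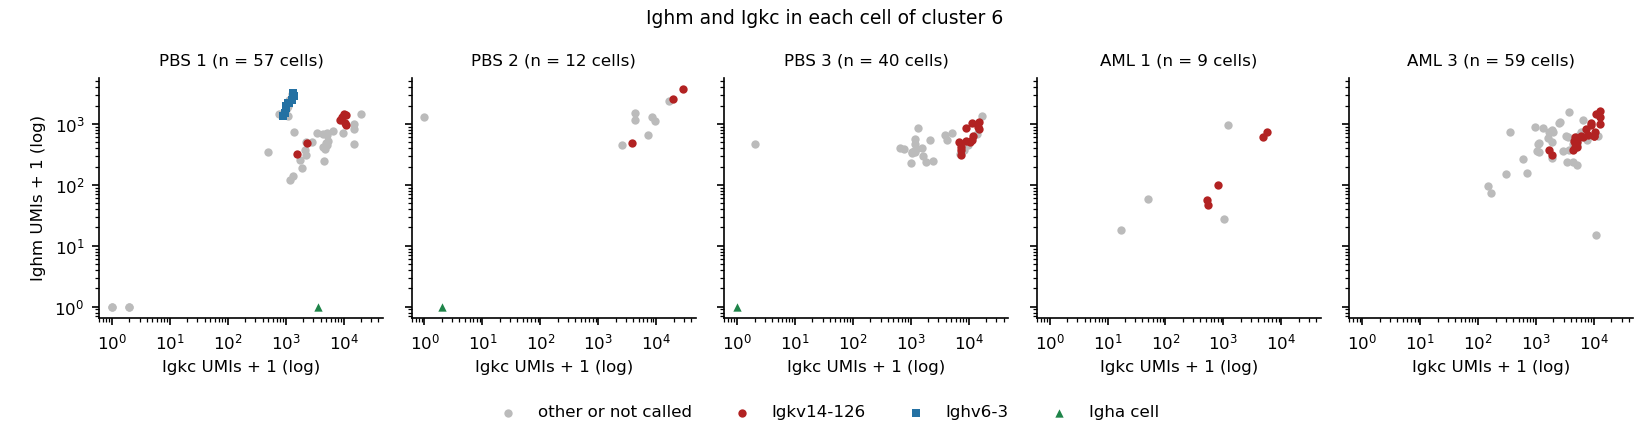
Ighm against Igkc in each of the 177 cluster 6 cells, 1 panel per library, both axes UMIs + 1 on log scales. Red points have Igkv14-126, blue squares Ighv6-3, green triangles are the 3 Igha cells, and in PBS 1 the Ighv6-3 cells stand above and to the left of the Igkv14-126 cells.

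As a share of cluster 6 UMIs the members varied less. Ighm was at 115733, 70393 and 45969 CPM in PBS 1, 2 and 3 and at 69139 and 59250 CPM in AML 1 and 3. Igkc was at 454737, 448266 and 518144 CPM in PBS and at 386415 and 460337 CPM in AML. Both genes overlap between the groups. Jchain was at 53044, 56932 and 39923 CPM in PBS and at 33328 and 33967 CPM in AML, where AML 1 rests on 9 cells. The groups did not overlap for Jchain, but the share of all genes that separate in this way was not counted. The ratio of Ighm to Igkc UMIs, used here to compare cells and not the 2 genes, went from 0.0887 in PBS 3 to 0.255 in PBS 1.

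V genes were counted in few UMIs, and a cell was assigned one from at least 5 UMIs with at least 80% from 1 gene. A kappa V gene was called in 98 of the 177 cells and a heavy chain V gene in 49. The former spread over 24 genes and the latter over 12, yet 1 of each took about as many cells as the others together. Igkv14-126 was called in 51 cells, the next being Igkv12-89 with 6, all in PBS 1, and Igkv12-44 with 5. Ighv11-2 was called in 26 cells, followed by Ighv6-3 with 9 and no other with more than 2.

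The pair was found in every library with kept cells. Igkv14-126 was called in 8 of 26, 3 of 8 and 13 of 21 cells with a kappa V gene in PBS 1, 2 and 3, and in 5 of 6 and 22 of 37 in AML 1 and 3. Ighv11-2 was called in 5 of 16, 1 of 2, 7 of 11, 2 of 2 and 11 of 18 cells with a heavy chain V gene. Among the 36 cells with both calls, 25 had Ighv11-2 with Igkv14-126, 0 had only one of the pair and 11 had neither. In textbook terms this is the pair of antibodies to phosphatidylcholine made by B-1 cells, a self-renewing innate-like B lineage whose germline-like IgM arises without immunization. The 3 smaller copies had no V gene call, so leaving them out could not change these counts. The minimum matters to the share but not to the pairing. With 1 UMI as the minimum, chosen after seeing the data, 57 of 143 cells had Igkv14-126 (39.9%, against 52.0% with 5), and in all 52 of these with a heavy chain call it was Ighv11-2.

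Cells of PBS 1 split by V gene in how much of each chain they held. The 9 Ighv6-3 cells had 900 to 1378 Igkc UMIs (median 1105) and 1365 to 3214 Ighm UMIs (median 2181). The 8 Igkv14-126 cells had 1592 to 10914 Igkc (median 9916) and 319 to 1477 Ighm (median 1104.5). The Igkc ranges do not overlap and the Ighm ranges barely do, and Ighm per Igkc was 1.52 to 2.44 in the former and 0.0896 to 0.211 in the latter. The calls need UMIs of the heavy chain in the former and of kappa in the latter, and so can favour cells high in that chain. The 5 PBS 1 cells called by heavy chain as Ighv11-2 had 975 to 1477 Ighm and 9500 to 20402 Igkc UMIs, with a median Ighm per Igkc of 0.0975 and a highest of 0.143. Jchain overlapped between the first 2 sets, at 491 to 851 and 106 to 710 UMIs. Only 1 of the 9 Ighv6-3 cells had a kappa call at 5 UMIs, Igkv5-39. With 1 UMI as the minimum 19 cells of PBS 1 had Ighv6-3, 16 had Igkv5-39 and 16 had both. Outside PBS 1, Ighv6-3 had 1 UMI in cluster 6, in AML 3. Cells of 1 library are not independent replicates, so no test was made.

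A set of AML 3 cells carried a second light chain constant gene. Of the 58 kappa cells of AML 3, 12 held 229 to 974 Iglc3 UMIs, 3.74% to 12.4% of their light chain UMIs, where the other 46 held at most 46. All 12 were Igkv14-126 cells, and the 6 of them with a heavy chain V call had Ighv11-2. The other 10 Igkv14-126 cells of AML 3 had 0 to 15 Iglc3 UMIs. In the 12 cells Igkc was at 1901 to 12997 UMIs (median 9459.5) and Ighm at 308 to 1640 (median 843.5), against 1664 to 9868 (4747) and 372 to 812 (499.5) in the 10. The lambda V genes Iglv1, Iglv2 and Iglv3 were at no more than 6, 0 and 1 UMIs in the 12. The lambda Igha cells of PBS 2 and PBS 3 had only 98 and 5 Iglv1 UMIs beside 16327 and 6786 Iglc3 UMIs. V gene counts this low cannot tell whether a lambda V gene was absent from the 12 cells.

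Kappa cells with at least 100 Iglc1 UMIs were fewer. AML 1 had 2, with 245 and 255 UMIs, PBS 1 had 1 with 701, PBS 3 had 1 with 100 and AML 3 had 1 with 590. The first 4 of these 5 were Igkv14-126 cells. No kappa cell outside AML 3 had more than 71 Iglc3 UMIs.

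**Figure D2:**
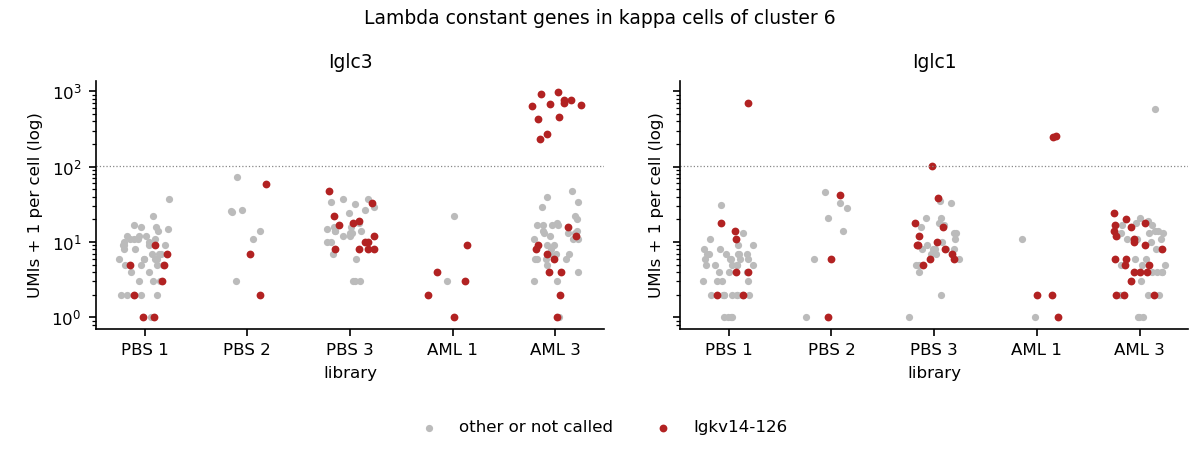
Iglc3 (left) and Iglc1 (right) UMIs + 1 on a log scale in each of the 166 kappa cells of cluster 6, by library, with Igkv14-126 cells in red and the dotted line at 100 UMIs. The 12 AML 3 cells with 229 to 974 Iglc3 UMIs stand apart from all others.

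Outside cluster 6, Ighm, Igkc and Jchain were lower by orders of magnitude but still counted. Cluster 6 held 87.1% to 94.0% of the Ighm UMIs of kept cells in the PBS libraries, and 96.0% to 99.6% of those of Igkc. In the 16645 other kept cells Ighm was at 121, 137 and 139 CPM in PBS 1, 2 and 3 and at 96.4 and 127 CPM in AML 1 and 3. Igkc was at 111, 41.4, 436, 36.2 and 115 CPM, and Jchain at 19.0, 4.13, 33.3, 2.62 and 11.9 CPM. PBS 3 was highest for both of the latter, but 1 cell of its cluster 7 held 7041 of these 9713 Igkc UMIs and 325 of 743 Jchain UMIs.

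Cluster 2 had the most Ighm of these clusters. Its mean was 277 ± 48.9 CPM (SD over 5 libraries), with a range from 225 to 346 CPM. The highest library in clusters 0, 1, 3, 4, 5 and 8 reached 169 CPM, in cluster 3, so their ranges lay below that of cluster 2. Means were 128 CPM in cluster 8, 125 in cluster 3, 112 in cluster 4, 83.0 in cluster 1, 64.8 in cluster 5 and 60.6 in cluster 0, and neighbours in this order overlap in range. Cluster 7 was at 7.11 CPM in its lowest library and at 1054 CPM in PBS 3, where 1 cell held 365 of the 370 UMIs. Ighd was also highest in cluster 2, at 4.09 ± 1.58 CPM, and at most 1.70 CPM in the mean of any other cluster outside 6. Below cluster 2 its order differed from that of Ighm, with 1.70 CPM in cluster 4, 0.909 in cluster 3 and 0 in cluster 8.

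The share of cells with an Ighm UMI was also highest in cluster 2. With each cell thinned to 2000 UMIs, so that libraries and clusters are compared at 1 depth, the median share over libraries was 41.8% in cluster 2 (31.2 to 47.6), 18.6% in cluster 3, 18.2% in cluster 8, 17.7% in cluster 4, 11.6% in cluster 1, 11.3% in cluster 5 and 7.36% in cluster 0. Without thinning cluster 2 was at 66.6% and cluster 4 was next, at 50.7%. For Igkc the shares ran from 12.3% in cluster 4 to 19.4% in cluster 5 among clusters 0 to 5, with 16.8% in cluster 2. For Jchain they ran from 0.909% in cluster 3 to 2.99% in cluster 0, with 2.86% in cluster 2. The part of free RNA in the Ighm, Igkc and Jchain shares was not tested. Cluster 8, with 3 libraries, had the highest shares outside cluster 6, at 32.7% for Igkc and 4.55% for Jchain. The ratio of Ighm to Igkc UMIs was 2.51 to 7.90 in cluster 2 and 0.664 to 2.06 in clusters 0, 1, 3, 4 and 5 together, above the 0.0887 to 0.255 of cluster 6 in each library. Igkc to Jchain was 7.87 to 13.6 in cluster 6, 5.11 to 12.0 in cluster 2 and 5.96 to 14.3 in those 5 clusters.

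**Figure D3:**
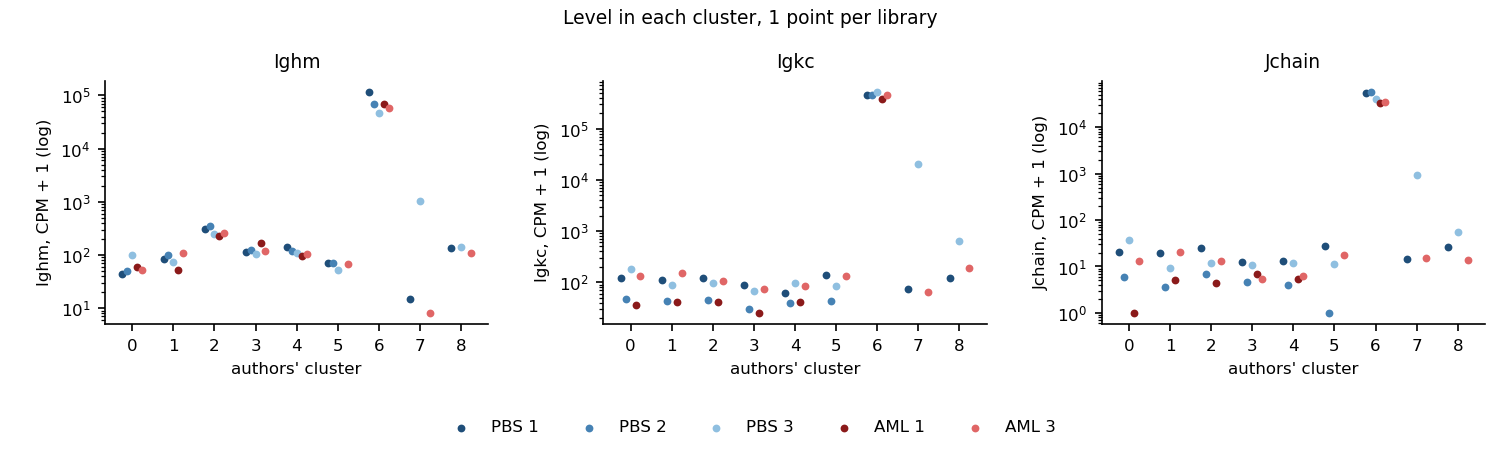
Ighm, Igkc and Jchain in each of the authors' clusters as CPM + 1 on log axes, 1 point per library with at least 20 cells in the cluster (all 5 libraries for cluster 6). Cluster 6 stands far above the rest for each gene, cluster 2 is next for Ighm, and the PBS 3 point of cluster 7 rests on 1 cell.

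By the authors' classes, outside cluster 6, Ighm was highest in MPP-4, the lymphoid-biased progenitors, at 210 ± 26.1 CPM (SD, 5 libraries), followed by MPP-3 at 119 ± 75.0, MPP-2 at 88.9 ± 7.01 and HSC at 33.1 ± 7.64. The ranges of MPP-4 (174 to 244 CPM) and MPP-2 (78.5 to 97.2) do not overlap, nor do those of MPP-2 and HSC (27.2 to 45.9), and MPP-3 (62.0 to 249) overlaps both MPP classes. The place of MPP-3 above MPP-2 rests on PBS 3, at 249 CPM, where 1 cell of cluster 7 held 365 of the 558 Ighm UMIs. MPP-3 was at 88.2 and 82.4 CPM in PBS 1 and 2 and at 62.0 and 113 CPM in AML 1 and 3. The gene lists behind the class scores were not used here and may hold members, so these levels are a description. Igkc had another order, with 112 ± 62.8 CPM in HSC, 86.7 ± 42.2 in MPP-4 and 66.1 ± 28.8 in MPP-2, and all of these ranges overlap. In MPP-3 it was 726 ± 1428 CPM, with 3280 CPM in PBS 3, where the same cell held 7041 of the 7347 UMIs.

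Outside cluster 6, 18 kept cells were called Ighm, and 4 kept cells had at least 100 light chain UMIs, 3 in PBS 3 and 1 in AML 3. Of the 18, 8 also had at least 10 light chain UMIs, 7 of them in PBS 3 and 1 in AML 3. A cluster 7 cell of PBS 3 held 7041 Igkc, 365 Ighm and 325 Jchain UMIs of 17544. A cluster 0 cell of the same library had 368 Iglc1, 212 Ighm and 75 Jchain UMIs of 35998, and a cluster 1 cell of AML 3 had 473 Igkc, 197 Ighm and 75 Jchain of 18524. The other 10 Ighm cells had 10 to 19 Ighm UMIs and fewer than 10 light chain UMIs, and they came from PBS 1 (3 cells) and PBS 2 (7). Doublets were not called, and their part in these cells was not tested.

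Genes that followed the members were looked for over 38 sums of at least 20 cells, each of 1 library and 1 cluster, by Pearson correlation of log2(CPM + 1) among 12471 genes with at least 100 UMIs. The sums share libraries and differ in depth, and all values rest on cluster 6 lying far from the rest. For Ighm the nearest genes were Mzb1 (r = 0.94), Cd79a, Pou2af1, Gm30211 and Tnfrsf17 (0.93 each). For Igkc they were Gm30211 (0.97), Pou2af1 (0.95), Tnfrsf17 (0.94), Cd79a (0.93) and Iglc3 (0.92), and for Jchain the same genes in the same order at 0.95, 0.93, 0.92, 0.92 and 0.90. For Igha they were Wnt10a (0.87), Cacna1s (0.85), Tnfrsf17, Cd79a and Irf4 (0.84 each). Without the 3 sums of cluster 6, an alternative chosen after seeing the data, the nearest to Ighm over 35 sums were Mzb1 (0.66), H2-Ob (0.65), Dntt (0.64), Tmem108 and 1700010I14Rik (0.63 each). The PBS 3 sum of cluster 7 stayed among the 35, at 1054 CPM Ighm with 365 of its 370 UMIs from 1 cell. Its weight in these values was not tested. Dntt encodes the terminal transferase that adds bases at V(D)J junctions in early lymphoid cells.

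AML was compared with PBS on counts summed per library, by edgeR's quasi-likelihood test with Benjamini-Hochberg adjustment over all genes, once in all kept cells, once outside cluster 6 and once in MPP-4 outside cluster 6. The 3 comparisons share their libraries. Without cells that have a larger copy in another library, 23, 22 and 4 genes were called in place of 23, 24 and 4, and each member kept its direction and its side of the threshold. Sums combine the number of antibody-secreting cells with the transcripts in each. Cluster 6 held 0.834%, 1.28% and 0.910% of the kept cells in PBS 1, 2 and 3 and 1.30% and 1.49% in AML 1 and 3, a description that was not tested, and the levels per cell are given above. Over all kept cells 14364 genes were tested and 23 were called, or 0.160%, of which 22 were higher in AML (0.153%) and 1 lower (0.00696%). Of the members, 7 passed the filter on low counts and 1, Igha, was called, which was also the only gene called lower. Ighg1, Ighg2b and Ighg2c did not pass the filter. The median log2 difference was -0.40 over the 7 members and -0.03 over all genes tested.

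Igha had 601, 1432 and 488 UMIs in PBS 1, 2 and 3 and 2 and 6 UMIs in AML 1 and 3. In CPM this is 18.7, 138 and 21.5 against 1.03 and 0.217, with no overlap, and the fitted log2 difference was -7.71 ± 1.20 (SE, adjusted p = 0.0183, edgeR). With the 3 Igha cells described above left out, a choice made after seeing the data, Igha did not pass the filter and had no value. The call was also lost without AML 1 (adjusted p = 0.0504) or AML 3 (0.0853), under limma-voom (0.0815) and with the 5% of cells with most UMIs left out (0.485). Over all barcodes of the 6 libraries, where AML 1 holds 501 Igha UMIs in place of 2, the log2 difference was -1.37 (adjusted p = 0.402, edgeR), and over all alternatives the adjusted p ran from 2.73e-59 to 0.485.

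The other members did not pass the test in all kept cells. Jchain was at 873, 1293 and 829 CPM in PBS and at 651 and 761 CPM in AML, and the log2 difference was -0.53 ± 0.30 (adjusted p = 0.544, edgeR). Ighm was at 1982, 1728 and 1053 CPM against 1440 and 1431, a log2 difference of -0.15 ± 0.31 (adjusted p = 0.879, edgeR). Igkc was at 7432, 10187 and 10765 CPM against 7556 and 10266, and its difference of -0.13 ± 0.34 (adjusted p = 0.913, edgeR) changed sign when PBS 3 or AML 1 was left out (0.043 and 0.072). Iglv1 was at 10.3, 28.1 and 24.5 CPM against 7.71 and 10.8, at -1.14 ± 0.40 (adjusted p = 0.339, edgeR), and was called only when no filter was set (adjusted p = 0.00266). Iglc2 and Ighd overlapped between the groups, at -0.40 ± 0.41 and 0.71 ± 0.48.

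**Figure D4:**
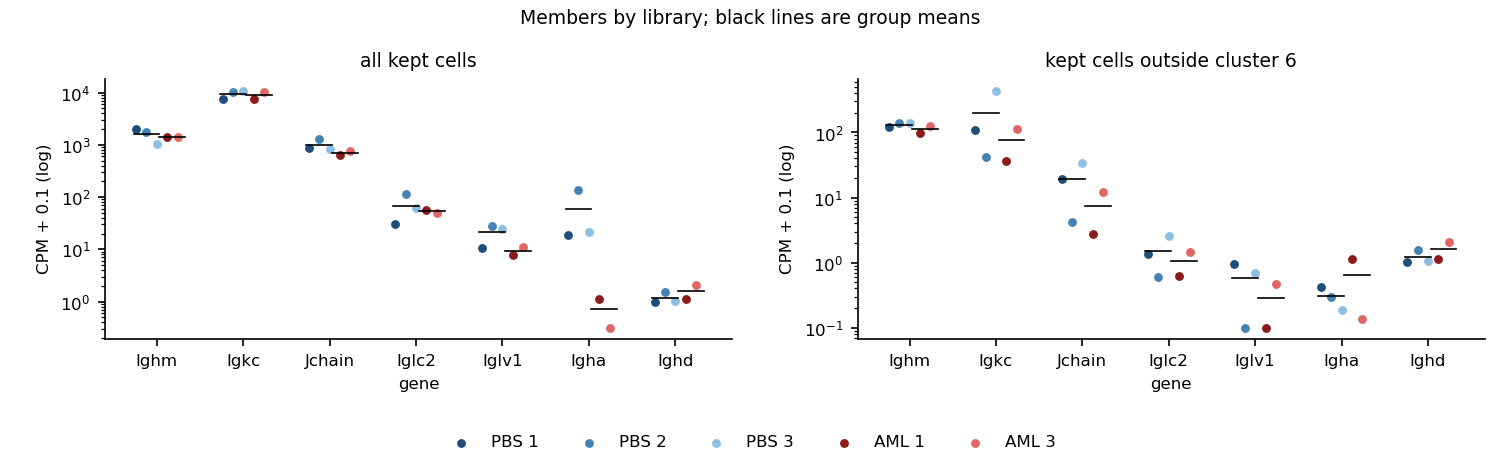
The 7 members with most UMIs in all kept cells (left) and in kept cells outside cluster 6 (right), as CPM + 0.1 on log axes, 1 point per library (3 PBS, 2 AML), with group means as black lines. Igha in all kept cells is at 18.7 to 138 CPM in PBS and at 0.217 and 1.03 CPM in AML. PBS 3 stands highest for Igkc and Jchain outside cluster 6, where 1 cell holds 7041 of 9713 Igkc and 325 of 743 Jchain UMIs.

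Outside cluster 6, 24 of 14300 genes were called (0.168%), all higher in AML and 0 lower, and 0 of the 6 members tested. None of the 6 had an unadjusted p below 0.05 by edgeR, and DESeq2 and limma-voom also called 0. Ighm differed by -0.27 ± 0.24 (adjusted p = 0.691, edgeR), from the CPM given above. Igkc differed by -1.41 ± 0.72 (adjusted p = 0.506, edgeR) and Jchain by -1.12 ± 0.61 (adjusted p = 0.526, edgeR), with overlapping groups. Without PBS 3 the Igkc difference was 0.10 and that of Jchain -0.35, and with cells of at least 10 light chain UMIs left out of every library, a choice made after seeing the data, they were -0.20 and -0.71. With no filter both were called lower (adjusted p = 0.000113 for Igkc and 0.00302 for Jchain, edgeR).

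In MPP-4 cells outside cluster 6, 4 of 12305 genes were called (0.0325%) and 0 of the 5 members tested, with 1 at an unadjusted p below 0.05 by edgeR and 0 called by DESeq2 or limma-voom. Ighm was at 213, 244 and 220 CPM in PBS and at 174 and 197 CPM in AML. The log2 difference was -0.37 ± 0.25 (adjusted p = 0.918, edgeR). Jchain was at 23.2, 4.82 and 25.8 CPM against 2.85 and 11.2 CPM, which overlap, at -0.96 ± 0.45 (unadjusted p = 0.0453, adjusted p = 0.829, edgeR). Igkc was at 128, 37.5 and 120 CPM against 45.6 and 103 CPM.

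The genes of the surrounding programme were tested in the same fits, from lists of plasma cell, B cell, early lymphoid, secretory, plasmacytoid, LSK, T and NK cell, neutrophil and erythroid genes and the other constant and lambda genes, 111 in all. Over all kept cells 91 were tested and 0 called by edgeR, with 17 at an unadjusted p below 0.05 against 1511 of all 14364 genes, and DESeq2 and limma-voom each called 1, Mpo. Among them, 15 of 15 plasma cell markers were tested, with a median log2 difference of 0.03, and 15 of 15 secretory pathway genes, with a median of 0.19. The 10 tested genes of the early B and lymphoid list had a median of 0.25. The other constant and lambda genes, of which 3 were tested, had a median of -1.56, the 9 erythroid genes -0.97 and the 11 LSK genes -0.37. Outside cluster 6, 87 were tested and 1, the neutrophil granule enzyme gene Mpo, was called higher in AML, at 82.3, 87.9 and 105 CPM against 403 and 195 CPM (log2 difference 1.67 ± 0.31, adjusted p = 0.0497, edgeR). The Mpo call was lost without PBS 1 (adjusted p = 0.269), PBS 2 (0.205), PBS 3 (0.0755) or AML 1 (0.269), and over the alternatives the adjusted p ran from 5.72e-07 to 0.269. In MPP-4 cells 68 were tested and 0 called, by edgeR, DESeq2 or limma-voom, with 13 at an unadjusted p below 0.05 by edgeR against 730 of all 12305 genes.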

How the data were processed

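UMI counts per gene and barcode were deposited by the authors as 1 matrix per library; the submitters' notes name Cell Ranger 7.0.1, R 4.2.2, Seurat 4.3.0 and GRCm38 (mm10). Kept cells, clusters and classes come from the deposited cell table, of which 19 columns were not used. AML 2 has no cell in it and entered only fits over barcodes. The mitochondrial percent of each cell, deposited by the authors in that table, was carried along and used in no test. Doublets were not called, and the sources used here do not state the cell filters behind the table.

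Counts were summed per library, filtered by expression, scaled by TMM and tested with edgeR 4.0.16 (R 4.3.3), calling an adjusted p below 0.05. DESeq2 1.42.0, limma-voom 3.58.1, RLE scaling, no filter, each library left out, replicate number as a block, thinning to 2000 UMIs, the top 5% of cells by UMIs left out and 2 other choices of barcodes were alternatives. The fit was tested on simulated data. Genes named are the 10 members, called genes of the lists, and the 5 genes most like Ighm, Igha, Igkc and Jchain; for lists without a called gene the 2 with the highest mean, which the rule also names, are given in counts only. The markers, light chain genes and V genes named to describe cluster 6 fall outside this rule and were chosen after their values were seen. The members and lists were chosen with earlier results of these data known. Python 3.11.15 with numpy 2.4.6 and scipy 1.17.1 computed the rest.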

Additional observations from a re-analysis of the deposited data

Results flagged for a closer look

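Antibody transcripts were also counted in barcodes that no comparison above uses. In AML 1, 38 barcodes outside the cell table had at least 100 light chain UMIs and no larger copy in another library, against 1, 0 and 1 in PBS 1, 2 and 3 and 2 in AML 3. As a share of the barcodes outside the table this is 0.470% of 8088 in AML 1, 0.0362% of 2763 in PBS 1, 0% of 322 in PBS 2, 0.0546% of 1832 in PBS 3 and 0.123% of 1628 in AML 3. Of these 38, 32 were called Ighm and 5 Igha, 37 were kappa and 1 lambda, and Igkv14-126 was called in 12 of the 17 with a kappa V gene. Their median total was 1145 UMIs. AML 1 had 499 Igha UMIs outside the table and 2 in its kept cells. In AML 2, whose 17055 barcodes are all outside the table, 99 barcodes had at least 100 light chain UMIs, and all but 2 had a larger copy in another library. Why these barcodes are outside the table was not tested.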

How the results depend on the processing

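Of the values for single genes under the alternatives, 235 kept their direction and their side of the threshold, 13 lost a call, 6 gained one and 19 changed sign. The number of genes called depended strongly on the settings. It was 23 in all kept cells, and 83 with DESeq2, 392 with no filter, 13 with thinned cells, 75 with an own filter on the barcodes of 6 libraries and 2 over all barcodes. Outside cluster 6 it was 24, and 75 with DESeq2, 381 with no filter and 13 with thinned cells. In MPP-4 it was 4, and 1 with DESeq2, 1 with limma-voom, 75 with no filter, 10 with thinned cells and 13 without the 5% of cells with most UMIs. With 1 library left out the counts ran from 2 (without PBS 1) to 419 (without AML 3) in all kept cells, from 1 to 468 outside cluster 6 for the same libraries, and from 0 (without PBS 3) to 34 (without AML 3) in MPP-4. Counts also moved without PBS 2, to 8, 12 and 9. Where AML 1 or AML 3 is left out, the lone AML library is assumed to vary like the PBS libraries.

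These log2 differences of members changed sign. In all kept cells they were Ighm 0.15, Igkc 0.83 and Iglc2 0.42 without the 5% of cells with most UMIs, and Igkc 0.11 with thinned cells. With 1 library left out there, Ighd ran from -0.032 (without AML 3) to 0.94, Igkc from -0.34 to 0.043 (without PBS 3) and 0.072 (without AML 1), and Iglc2 from -0.75 to 0.17 (without PBS 2). Outside cluster 6, Ighd was -0.082 with thinned cells and ran from -0.024 (without AML 3) to 0.92, Igkc from -2.49 to 0.096 (without PBS 3) and Iglc2 from -1.50 to 0.38 (without PBS 3). In MPP-4, Igkc ran from -1.20 to 0.035 (without AML 1) and Iglc2 from -0.43 to 0.66 (without AML 3), and Iglc2 was 0.034 with DESeq2, 0.24 with limma-voom, 0.067 without the 5% of cells with most UMIs and 0.028 without cells of at least 10 light chain UMIs. None of the values that changed sign passed the threshold, and the causes were not tested.

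With the replicate number as a block, which compares AML 1 and 3 with PBS 1 and 3 and leaves 1 residual degree of freedom, the counts were 91, 93 and 34, Iglc2 in all kept cells was 0.25, and outside cluster 6 Igkc and Jchain and in MPP-4 Jchain were called (adjusted p = 0.000625, 3.22e-05 and 0.017, edgeR). Deviations of same-numbered libraries correlated at -0.06 and -0.05 over 14364 genes, so the numbers are not taken as a pairing.

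With a minimum of 50 UMIs 64 AML cells were Ighm, at 95% in place of 80% 91 PBS and 50 AML cells were kappa, and at 50% 68 AML cells were. The median share of cluster 2 cells with Ighm was 24.3% at 1000 UMIs and 66.6% unthinned. With V gene minimums of 1 and 10 UMIs, added after seeing the data, Igkv14-126 took 39.9% and 65.6% of called cells. With a pseudocount of 10 in place of 1, 4 of the 5 genes nearest to Ighm remained and 3 of the 5 for Igha, Igkc and Jchain, but without cluster 6 only 2 of the 5 for Ighm, Mzb1 and Dntt. Kappa V calls fell from 143 to 64 cells and heavy chain V calls from 131 to 12 between those minimums.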
